A study of Arabidopsis thaliana with 72 samples.

Results

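The response of Arabidopsis seedlings to gibberellin A3 (GA3) was followed in a gibberellin-deficient mutant, ga1-5, and in the Col-0 wild type. The experiment comprised 24 of the 72 ATH1 arrays in the series, namely all GA3 arrays of the 2 genotypes and the mock arrays of the same sets. The groups were ga1-5 with 1 µM GA3, ga1-5 mock, Col-0 with 1 µM GA3 and Col-0 mock, each at 30 min, 1 h and 3 h with 2 arrays. Whole seedlings were 7 days old and had grown at 22 °C. A set is the group of arrays that carry the same tag in their titles, and whether it was a processing batch is not stated. Each set holds 1 genotype at 1 time, so neither genotype nor time can be told apart from set when levels are compared across sets. The GA3 effect was measured within sets, between the GA3 and the mock array with the same replicate number, which gave 12 pairs (6 per genotype). Nothing in the labels shows whether replicate arrays stem from different cultures. The p-values therefore reflect variation between arrays that may be technical. In whole seedlings, fewer cells of a type and less RNA per cell cannot be told apart.

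Gibberellins are diterpenoid hormones that promote stem and root elongation, germination and flowering. The hormone binds the soluble GID1 receptors, the bound receptor captures DELLA proteins (nuclear repressors of growth), and the F-box protein SLY1 then marks the DELLA for destruction. The pathway is known for negative feedback, because DELLA proteins raise the transcripts of gibberellin receptors and of late synthesis enzymes. The ga1 mutants are impaired in the first committed step of gibberellin synthesis, so DELLA proteins accumulate in them until hormone is supplied.

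The deposited 2% trimmed mean signals lay between 1952 and 2983 in ga1-5 and between 887 and 1172 in Col-0, and every array was scaled to the same trimmed mean. Within pairs the deposited trimmed means differed by at most 0.00202%. GA3 and mock arrays of a pair correlated at 0.967 to 0.978 across probe sets. Of 22746 non-control probe sets, 15934 were bright enough to be tested, and differences are given as log2 changes, GA3 minus mock, of the scaled signal plus 55. Precision is limited by the number of arrays. The GA1 gene itself is not named by any probe set used here, so the mutant label was not checked on it.

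Pooled over both genotypes and the 3 times, GA3 lowered far more probe sets than it raised. In limma's blocked fit 128 of 15934 probe sets (0.803%) passed an adjusted p of 0.05, of which 30 rose (0.188%) and 98 fell (0.615%). The falls had a median log2 change of -0.37 and the rises one of 0.34, against a median of 0.00 over all tested probe sets. Of the 128, 63 name 1 gene (16 rises and 47 falls), and 54 moved the same way in 12 of 12 pairs, as did 78 of all tested probe sets. The same 12 pairs gave the pooled calls. Counts of pairs, here and below, therefore describe the called probe sets and are not separate support. Without the GA3 and mock arrays of Col-0 3 h replicate 2 the count was 83, and without those of ga1-5 3 h replicate 2 it was 66. With no replicate block it was 58.

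XERICO (AT2G04240), a RING-H2 gene whose transcript DELLA proteins raise and which promotes abscisic acid accumulation, gave the smallest p-value of the pooled comparison. In ga1-5 its scaled signal was 768, 863 and 1291 (lowest, median and highest of 6 arrays) with GA3, against 1620.4, 1857 and 1961 in mock. In Col-0 it was 669.9, 764 and 873 with GA3, against 1005 to 1428 with a median of 1309.8 in mock. In both genotypes every GA3 array lay below every mock array, with no overlap. The mean log2 signal was 9.93 ± 0.26 with GA3 and 10.87 ± 0.10 in mock in ga1-5, and 9.69 ± 0.12 with GA3 and 10.36 ± 0.17 in mock in Col-0 (SD, n = 6 each). XERICO fell by 0.80 on the log2 scale in the pooled fit (SE 0.07, adjusted p = 1.62e-05 by limma), by 0.93 in ga1-5 (adjusted p = 7.93e-05) and by 0.68 in Col-0 (adjusted p = 0.0291). It is the named gene whose fall passed in each genotype alone, and it was lower with GA3 in 12 of 12 pairs.

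GID1B (AT3G63010), which encodes 1 of the gibberellin receptors, showed a similar pooled fall with an unequal size in the genotypes. In ga1-5 the signal was 480.3, 584 and 1006 with GA3, against 1269, 1547 and 1696 in mock, without overlap. In Col-0 it was 382, 509.95 and 578 with GA3, against 564, 688 and 871 in mock, and the ranges overlapped. The ga1-5 mock arrays were thus the highest of the 4 groups, while the GA3 medians of the genotypes lay closer together than their mock medians. The genotypes lie in different sets, so in these levels genotype and set cannot be told apart. The pooled change was -0.79 (SE 0.12, adjusted p = 0.00211 by limma), a fall seen in 12 of 12 pairs. The change was -1.15 in ga1-5 (SE 0.12, adjusted p = 6.35e-05) and -0.42 in Col-0 (SE 0.12, adjusted p = 0.189). The difference between the genotypes, -0.73 (SE 0.17), did not pass over all probe sets (adjusted p = 0.351). Without the 3 h sets the pooled call of GID1B was lost (adjusted p = 0.0964).

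GID1A (AT3G05120), a second receptor gene, also fell in the pooled fit. Its signal in ga1-5 was 606, 723 and 1061 with GA3, against 1027, 1125 and 1464 in mock. The Col-0 arrays read 443, 628 and 948 with GA3, against 616, 778 and 903 in mock. The groups overlapped in both genotypes, and 10 of 12 pairs were lower with GA3. The pooled change was -0.40 (SE 0.09, adjusted p = 0.0315 by limma), with -0.56 in ga1-5 (adjusted p = 0.0302), against -0.25 in Col-0 (adjusted p = 0.496). The call was kept in 3 of the 12 fits that left out 1 pair, with adjusted p between 0.0058 and 0.0876.

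The third receptor gene, GID1C, had a pooled change of 0.02 (SE 0.11, adjusted p = 0.978), with 0.15 in ga1-5 and -0.12 in Col-0. SLY1, the F-box gene named above, ranged from 724 to 1069 with GA3 and from 1177 to 1411 in mock in ga1-5, and the ranges did not overlap. In Col-0 the SLY1 ranges were 804 to 1194 with GA3 and 904 to 1117 in mock. SLY1 fell in ga1-5 (log2 change -0.51, SE 0.10, adjusted p = 0.0218 by limma), whereas its Col-0 change was -0.08 (adjusted p = 0.867) and its pooled change -0.30 (adjusted p = 0.127). The difference between genotypes was -0.44 (SE 0.14, adjusted p = 0.512). SLY2, a close relative of SLY1, had a pooled change of 0.01. SPY and SEC, which encode enzymes that place sugars on DELLA proteins, had pooled changes of 0.00 and -0.05. None of these 3 passed the test. The list of receptors and DELLA signalling holds 21 names, some of them for the same gene. Of its 7 tested genes, 2 fell and 0 rose in the pooled fit, where 0.615% of all tested probe sets fell and 0.188% rose. In ga1-5, 3 of the 7 fell and 0 rose, where 0.533% of all tested probe sets were called.

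**Figure D1:**
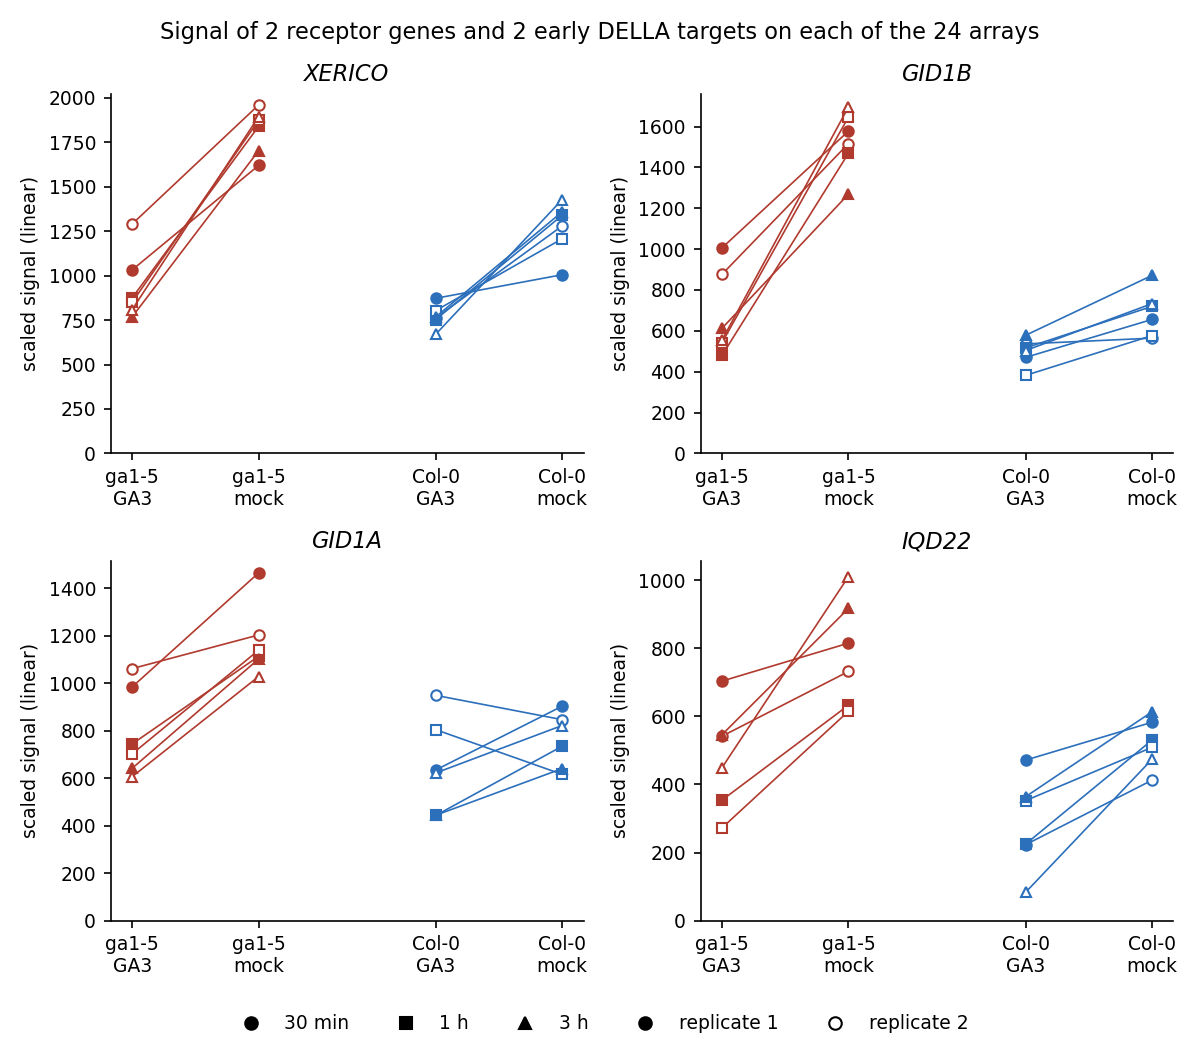
Scaled signal (linear axis from 0) of XERICO, GID1B, GID1A and IQD22 on each of the 24 arrays, with a line joining the GA3 and mock array of each pair, marker shape for time and filled or open markers for replicate 1 or 2. Every line for XERICO, GID1B and IQD22 is lower at its GA3 end, and 2 lines of GID1A in Col-0 run the other way.

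IQD22 (AT4G23060) encodes a calmodulin-binding protein of the IQ67-domain family and belongs to the list of early DELLA targets. In ga1-5 its signal was 272, 496 and 703 with GA3, against 615, 773 and 1010.5 in mock. The Col-0 arrays read 83.0, 289 and 471 with GA3, against 412, 519 and 613 in mock. All 12 pairs were lower with GA3, although the ranges overlapped in both genotypes. The pooled change was -0.78 (SE 0.12, adjusted p = 0.00266 by limma), with -0.69 in ga1-5 (adjusted p = 0.0805), against -0.86 in Col-0 (adjusted p = 0.098), so the call rests on both genotypes together. AT5G50915 and AT2G31730, 2 other members, had pooled changes of -0.24 and -0.12 and did not pass. The list of early DELLA targets holds 22 names, some of them for the same gene. Of these genes 6 were tested, among them GID1A and GID1B. Of the 6, 4 fell and 0 rose, where 0.615% of all tested probe sets fell and 0.188% rose. Their median pooled change was -0.59, against 0.00 over all tested probe sets. These members were known to respond in earlier results from the same arrays, so the count is not independent evidence. No probe set used here names any of the 28 entries for gibberellin synthesis and breakdown or the 15 for the GASA family. These genes were therefore not read by name, and whether unnamed probe sets measure them was not checked.

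**Figure D2:**
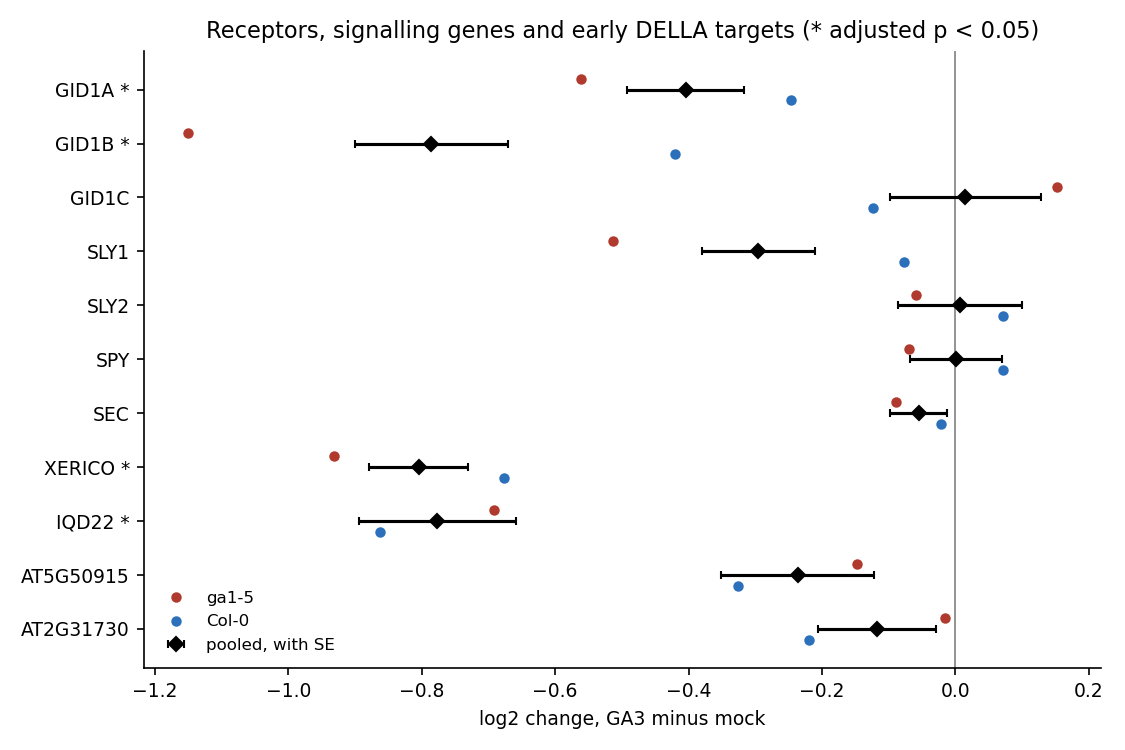
Log2 change, GA3 minus mock, of the 11 tested genes of the receptor, signalling and early DELLA target lists, with the pooled value and its SE (diamonds) and the values in ga1-5 and Col-0 (circles). GID1A, GID1B, XERICO and IQD22 carry the asterisk of an adjusted p under 0.05, and GID1C, SLY2, SPY and SEC lie near 0.

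Among the probe sets that passed the pooled test and name 1 gene, the 12 largest falls ran from XERICO at -0.80 to AT3G21670 at -0.44. AT3G21670, with the RefSeq synonym NPF6.4 of the NRT1/PTR transporter family, changed by -0.32 in ga1-5 and -0.57 in Col-0 and was lower with GA3 in 11 of 12 pairs. UGT76B1, which encodes a glucosyltransferase of isoleucic acid and salicylic acid, had nearly equal changes in the 2 genotypes. Its signal was 641, 1043 and 1332 with GA3 and 1254, 1407 and 1614 in mock in ga1-5, and 381, 589.6 and 773 with GA3 and 667, 808 and 1009 in mock in Col-0. The ranges overlapped, but UGT76B1 was lower in 12 of 12 pairs (pooled change -0.48, SE 0.08, adjusted p = 0.00494 by limma, with -0.47 in ga1-5 and -0.48 in Col-0). AT4G16447 changed by -1.05 in ga1-5 (adjusted p = 0.0176) and by -0.32 in Col-0 (adjusted p = 0.617). In ga1-5 its arrays did not overlap, with 252, 393 and 519 with GA3 against 556, 855 and 1212 in mock. In Col-0 only 3 of 6 pairs were lower. The remaining falls of this group were AT5G19730, AT5G43180, AT5G36160, AT5G17760, AT3G44970 and AT5G40540, with pooled changes between -0.52 and -0.45. Among named probe sets that missed the threshold, 16 had a lower pooled change than AT3G21670 and 1 a lower one than XERICO. That one, AT1G28190, had a pooled change of -1.0 (SE 0.25, adjusted p = 0.0688 by limma), with -1.59 in ga1-5 (adjusted p = 0.0218), against -0.42 in Col-0 (adjusted p = 0.711), and was lower in 10 of 12 pairs. AT1G17830 followed at -0.66 (adjusted p = 0.126), and it too passed in ga1-5 alone (-1.10, adjusted p = 0.0400).

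The 12 largest rises among probe sets that passed and name 1 gene lay between 0.30 and 0.76, below the largest falls in size. Of named probe sets that missed the threshold, 93 had a pooled change above the smallest of these 12 and 0 above the largest. AT2G34140, for which RefSeq gives a locus name as the symbol, was higher with GA3 in every pair. In ga1-5 its signal was 245, 275 and 359.9 with GA3, against 37.2, 119 and 175 in mock, without overlap. In Col-0 it was 392, 436 and 612 with GA3, against 298, 308 and 479 in mock, with overlapping ranges. Its pooled change was 0.74 (SE 0.13, adjusted p = 0.0103 by limma), with 1.09 in ga1-5 (adjusted p = 0.00216), against 0.39 in Col-0 (adjusted p = 0.404). AT5G62330 had the opposite balance, 0.56 in ga1-5 and 0.97 in Col-0 (pooled 0.76, SE 0.15, adjusted p = 0.0195), and neither genotype passed alone. It was higher with GA3 in 12 of 12 pairs, and its Col-0 arrays did not overlap (138 to 323 with GA3, 20.02 to 129.6 in mock). These signals are dim, the lowest below the 55 added to every signal. AT5G62330 was dropped by the stricter filter, which asks for brightness on at least 12 arrays. Neither of these differences between genotypes passed (adjusted p = 0.504 for AT2G34140 and 0.834 for AT5G62330). CML42, a calmodulin-like protein linked to trichome branching and insect defence, rose by a pooled 0.30 (SE 0.05, adjusted p = 0.0106), with medians of 2069 with GA3 and 1633 in mock in ga1-5 and of 1718 with GA3 and 1334 in mock in Col-0. BZIP61, a bZIP transcription factor gene, rose by 0.41 and was called in all 12 fits that left out 1 pair, whereas SETH5 rose by 0.39 and was called in 5 of those 12. AT1G26250 rose by 0.44, and AT5G48110, AT2G25720, AT4G39675, AT3G51660, AT2G47440 and AT1G78170 by 0.30 to 0.43. Of the 24 genes, 12 were called in every such fit, namely XERICO, GID1B, IQD22, UGT76B1, AT5G43180, AT3G44970, AT5G40540, AT3G21670, AT2G34140, AT2G25720, BZIP61 and CML42. The others were called in between 3 (AT1G26250) and 11 (AT5G62330) of the 12 fits, AT4G16447 in 4.

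**Figure D3:**
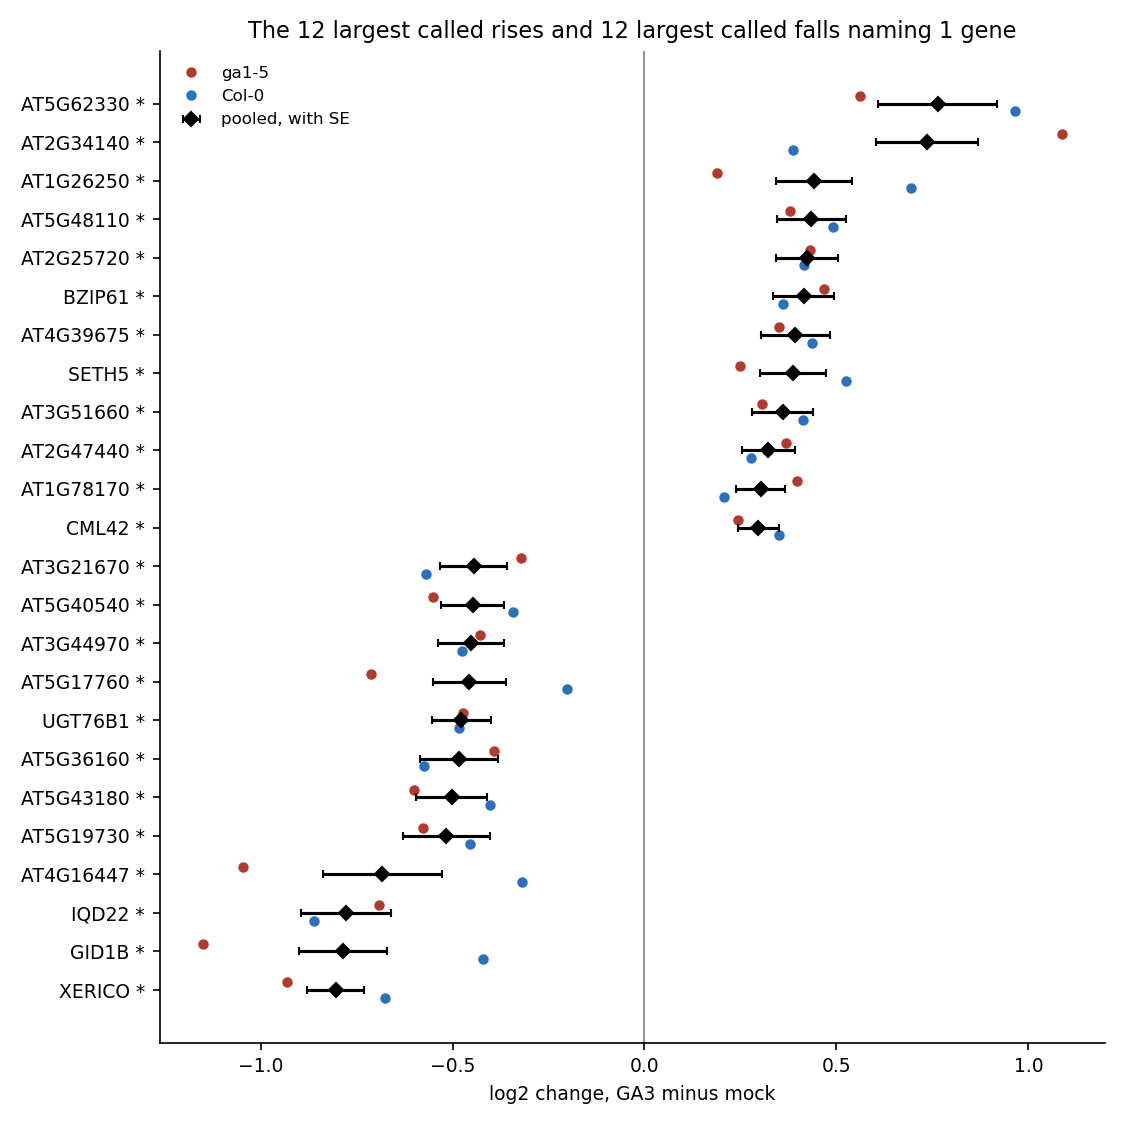
Log2 change, GA3 minus mock, of the 12 largest rises and 12 largest falls among probe sets with a pooled adjusted p under 0.05 that name 1 gene, with the pooled value and its SE (diamonds) and the values in ga1-5 and Col-0 (circles). All 24 have the same sign in both genotypes, and XERICO, GID1B and IQD22 are the largest falls shown. The pooled fit over both genotypes chose these 24, which favours a shared sign, so the signs describe them without a test.

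RefSeq gives 17 of the 63 called genes a symbol of their own, 12 of them falls and 5 rises. For the other 46 its symbol is the locus name, in some cases with a synonym such as NPF6.4. Beside those already described, the falls were UGT74D1 (-0.40), a glucosyltransferase of oxidised auxin, UGT72E2 (-0.27), a glucosyltransferase of lignin precursors, and CHIL (-0.37), a chalcone isomerase-like protein that promotes flavonoid synthesis. LHW, a bHLH regulator of vascular cell number in the root, fell by 0.35, CYP71B26, a cytochrome P450 gene, by 0.37, PGM by 0.32 and EXGT-A3 by 0.29 on the log2 scale. The other symbol-bearing rises were GTR2 (0.26), a glucosinolate transporter of the NRT1/PTR family, and tny (0.29), an AP2/ERF transcription factor gene. AT1G68570, with the RefSeq synonym NPF3.1 and known to transport gibberellin, fell by 0.39 (SE 0.08, adjusted p = 0.0173 by limma), with -0.52 in ga1-5 and -0.27 in Col-0. Families were grouped after these values were seen. Among UGT genes 3 of 29 tested fell and 0 rose, among NRT1/PTR genes 2 of 10 fell and 1 rose, and among genes with a CYP symbol 1 of 16 fell and 0 rose, where 0.615% of all tested probe sets fell and 0.188% rose. The median changes of these families were 0.01, 0.04 and 0.07.

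Genes of cell wall loosening, a process tied to gibberellin-driven elongation, gave 1 call in the pooled fit. Of 14 tested expansin and expansin-like genes 0 rose and 0 fell, with a median of 0.09 and a range from -0.20 to 0.44. EXLA2, at 0.84 in ga1-5 and 0.05 in Col-0, had a pooled change of 0.44 (adjusted p = 0.266), and EXLA1 one of 0.25 (adjusted p = 0.198). Of 9 tested XTH genes, which encode enzymes that cut and rejoin xyloglucan, EXGT-A3 fell and 0 rose. Over all tested probe sets 0.615% fell and 0.188% rose in the pooled fit, so few calls can be looked for in lists of this size. At 3 h, where 206 probe sets (1.29%) were called over both genotypes, XTH16 rose by 0.47 (SE 0.07, adjusted p = 0.0013 by limma) and XTH32 fell by 0.65 (SE 0.08, adjusted p = 0.000299). The expansin median at 3 h was 0.25 with 0 calls, against 0.00 over all tested probe sets.

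GH3.3, an auxin-conjugating enzyme gene of early auxin response, lay just outside the pooled threshold at 0.55 (SE 0.13, adjusted p = 0.0501 by limma), while GTR2 lay just inside at 0.0489. In ga1-5 the GH3.3 signal was 414, 784 and 1166 with GA3, against 360.0, 425 and 705 in mock. The Col-0 arrays read 579.8, 964 and 1813 with GA3, against 482, 716 and 858 in mock. The ranges overlapped in both genotypes, and 10 of 12 pairs were higher with GA3. By time its change was -0.11 at 30 min, 0.83 at 1 h (adjusted p = 0.0365) and 0.94 at 3 h (adjusted p = 0.00113). The other 5 tested genes of early auxin response lay between -0.13 and 0.10 in the pooled fit, among them WES1, another GH3 gene, at -0.08, and none passed. DFR, an enzyme of anthocyanin synthesis, fell by 0.85 at 3 h (SE 0.17, adjusted p = 0.0155), with a pooled change of -0.36 that did not pass.

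No gene was called in the pooled fit among the tested members of the lists for the cell cycle (1 tested), Aux/IAA repressors (2), brassinosteroid synthesis and response (2), PIF and light response (1), the circadian clock (1), dehydration and abscisic acid response (5), ethylene response (3), jasmonate (2), touch and rapid stress (3) and flavonoid synthesis (1). Few members could be tested, since the annotation leaves 8730 probe sets unnamed and the brightness filter left 2 of 7 named Aux/IAA genes, 2 of 4 named jasmonate genes, 3 of 4 named stress genes and 1 of 2 named flavonoid genes. Over all tested probe sets 0.803% were called in the pooled fit, so the lack of calls among these few genes says little about the lists. The members with the smallest p in these lists had adjusted p between 0.176 and 0.990. SIM, which encodes an inhibitor of cyclin-dependent kinases, had a pooled change of -0.14, and the repressor genes IAA20 and IAA18 had -0.25 and 0.00. BRH1, a RING finger gene that brassinosteroid lowers, and EXO, which promotes brassinosteroid-dependent leaf growth, had -0.15 and 0.01. HYH, the homologue of the light regulator HY5, changed by -0.17 and the clock gene GI by 0.12. SAG29, a sugar transporter gene of senescence and stress, and COR15B, a cold-regulated gene, had -0.45 and 0.24 without passing. In the ethylene list ARL, a gene of organ size, had 0.24 and RTE1, a regulator of the ethylene receptor ETR1, -0.14. PDF1.2, a defensin gene, and OPCL1, a gene of jasmonate synthesis, had 0.34 and 0.17. STZ, a zinc finger gene of abiotic stress, and CML38, a calmodulin-like gene, had 0.20 and 0.08. None of these members passed in either genotype alone. The 4 tested green tissue markers (LHCB4.1, LHCB4.2, PSAE-1 and RCA) had pooled changes between -0.12 and -0.03, and the 2 tested root markers, EXPA7 and EXPA18, of 0.02 and 0.08. The genotypes differed in sign, with a green marker median of 0.07 in ga1-5 and -0.25 in Col-0. The root marker median was -0.15 in ga1-5 and 0.25 in Col-0. All 6 passed the brightness filter, with 0 calls in either genotype. In Col-0 the median signal of LHCB4.1 was 27479.9 with GA3 and 33209.9 in mock, lower with GA3 in 5 of 6 pairs. The part of green tissue or root in the other results was not tested.

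The genotypes were next compared through contrasts that share no array. GA3 changed 85 probe sets in ga1-5 alone, 21 upward (0.132%) and 64 downward (0.402%). With array medians subtracted in place of trimmed-mean scaling the split was 32 upward and 56 downward. In Col-0 alone 5 probe sets passed (0.0314%), namely AT1G26250 and 246682_at upward and XERICO, 250429_at and 260856_at downward. The values in ga1-5 chose the 85, so only their Col-0 values carry a comparison. Of the 64 falls, 58 were below 0 in Col-0, where 46.9% of all tested probe sets were below 0, and their Col-0 median was -0.24 (-0.56 in ga1-5). Of the 21 rises, 15 were above 0 in Col-0, where 53.1% of all were, with a median of 0.12 (0.40 in ga1-5). Over all 15934 probe sets the changes in the 2 genotypes correlated weakly (r = 0.155, rho = 0.114), as a description across probe sets. No difference between genotypes passed in limma (0 of 15934). The larger ga1-5 values are therefore not shown to differ from those in Col-0 for any single probe set. An unadjusted p under 0.05 was found for 1159 probe sets, where 796.7 were expected by chance. With all 72 arrays in the fit 1 difference passed, and without the 30 min sets 5 did.

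The ga1-5 count depended on the later arrays. It was 34 and 24 without the pairs of 1 h replicate 1 and 1 h replicate 2, and 18 and 17 without those of 3 h replicate 1 and 3 h replicate 2. In Col-0 the count ranged from 0 to 11 over the fits that left out 1 pair. Of the 128 pooled calls, 50 were also called in ga1-5, 3 in Col-0 and 77 in neither genotype alone.

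**Figure D4:**
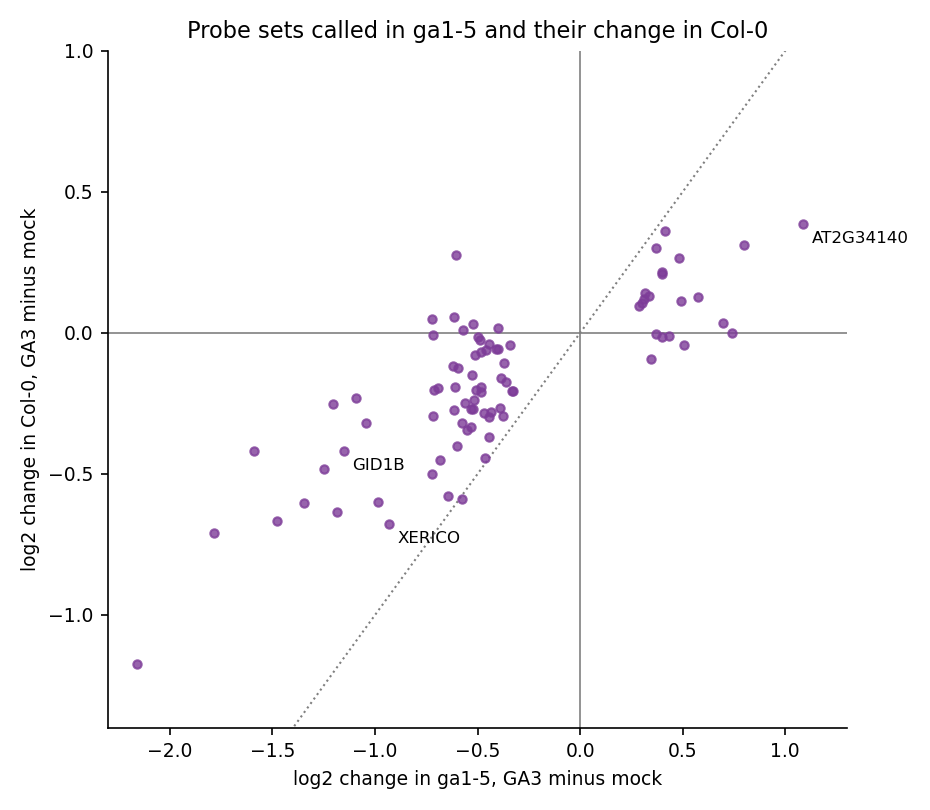
Log2 change, GA3 minus mock, in ga1-5 (x axis) and in Col-0 (y axis) for the 85 probe sets called in ga1-5, with a dotted line of equal change. Of the 85, 73 have the same sign in Col-0, and most lie closer to 0 on the y axis than on the x axis. The ga1-5 values chose the 85, which favours large values on the x axis, so the sizes are not compared on equal terms.

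More probe sets were called at the later times. In fits over both genotypes 0 probe sets passed at 30 min, 5 at 1 h (0.0314%) and 206 at 3 h. Of the 206, 72 rose (0.452%) and 134 fell (0.841%). At 30 min 743 had an unadjusted p under 0.05 in limma, fewer than the 796.7 expected by chance. Without the ga1-5 pairs of 3 h replicate 1 or 2 the 3 h count was 84 or 89. The genes called at 1 h were XERICO, GH3.3 and AT3G10760 (0.76, adjusted p = 0.0328), together with the unnamed probe sets 261768_at and 261866_at. XERICO changed by -0.60, -1.06 and -1.13 in ga1-5 at 30 min, 1 h and 3 h, and by -0.45, -0.67 and -0.91 in Col-0 (means of 2 pairs). GID1B changed by -0.69, -1.51 and -1.25 in ga1-5 and by -0.25, -0.49 and -0.52 in Col-0. Both genes were thus already lower in every pair at 30 min, before any probe set passed over the whole array. BZIP61 changed by 0.14, 0.42 and 0.85 in ga1-5 and by 0.12, 0.33 and 0.63 in Col-0.

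The arrays of the earlier times are separate from those of 3 h, whose values chose the probe sets described next. Of the 134 probe sets that fell at 3 h, 124 were below 0 at 1 h (47.7% of all tested probe sets were) and 109 at 30 min (51.4% of all). Of the 72 that rose at 3 h, 58 were above 0 at 1 h (52.3% of all) and 47 at 30 min (48.6% of all). The falls had a median of -0.11 at 30 min, -0.18 at 1 h and -0.58 at 3 h, and the rises one of 0.02, 0.12 and 0.46, so that the median of the rises was near 0 at 30 min. A change between 30 min and 3 h was itself called for 6 probe sets (0.0377%). AT5G36160 changed by -0.11 at 30 min and by -1.05 at 3 h, XTH32 by 0.06 and -0.65, and AT1G79720 by 0.03 and -0.58. Of the 3 unnamed ones, 260567_at and 265672_at had lower changes at 3 h than at 30 min and 247954_at a higher one.

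**Figure D5:**
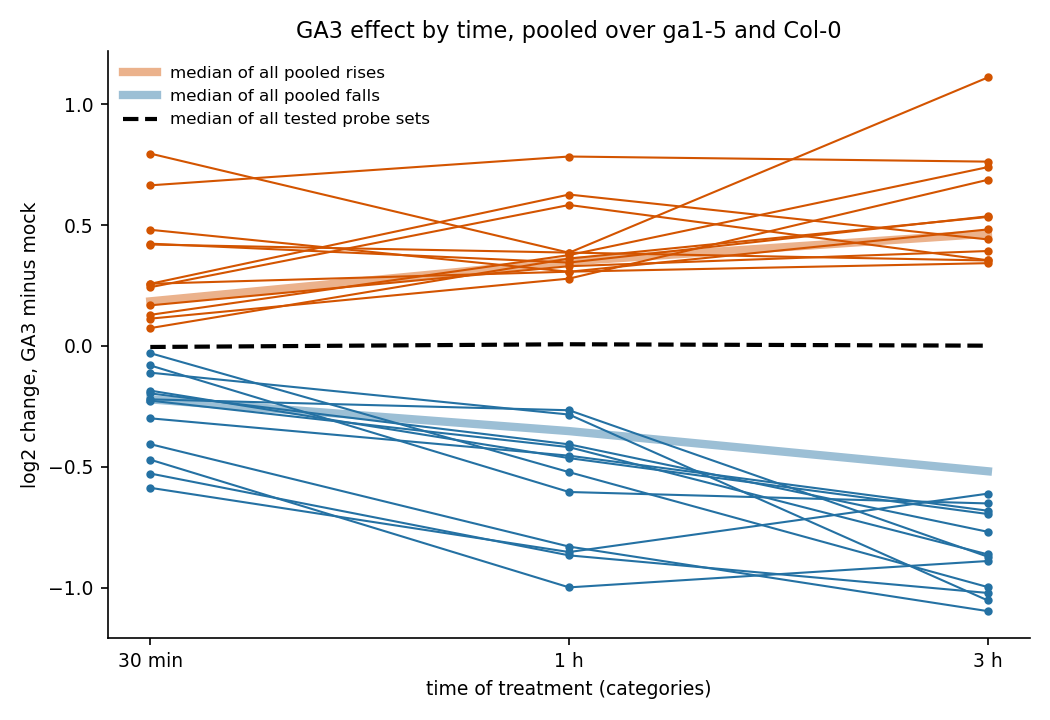
Log2 change, GA3 minus mock, at 30 min, 1 h and 3 h over both genotypes for the same 12 rises and 12 falls that passed the pooled test and name 1 gene (thin lines), with the medians of all 30 pooled rises and 98 pooled falls (thick lines) and of all tested probe sets (dashed). The falls have medians of -0.22, -0.35 and -0.52, and the pooled fit chose these probe sets, so the lines describe them without a test.

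The largest pooled changes of all belonged to probe sets that the annotation leaves unnamed. 261768_at had a signal of 521, 873 and 3616 with GA3 in ga1-5, against 5043, 5586 and 5806 in mock. In Col-0 it was 393, 607 and 1171 with GA3, against 1189.8, 1490.4 and 1648 in mock. The groups did not overlap in either genotype, and the pooled change was -1.67 (SE 0.21, adjusted p = 0.000552 by limma), with -2.16 in ga1-5 and -1.17 in Col-0. 266150_s_at changed by -1.25 (SE 0.18, adjusted p = 0.00211), and both were lower in 12 of 12 pairs. The largest unnamed rises that passed were 259445_at at 0.55 and 247954_at at 0.42.

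The probe sets called in ga1-5 were also read under the other hormones of the series, whose arrays share none with the ga1-5 contrast. The values came from a fit of all 72 arrays with 1 effect per hormone over the 3 times. In that fit GA3 in ga1-5 itself called fewer of them, 14 of the 64 falls and 1 of the 21 rises (0.107% of all tested probe sets fell and 0.00628% rose), and GID1A had an adjusted p of 0.166. Methyl jasmonate at 10 µM in Col-0 lowered 19 of the 64 falls and raised 12, where it lowered 7.48% and raised 5.35% of all tested probe sets. Brassinolide at 10 nM in Col-0 raised 9 of the 64 and lowered 0, where it raised 4.30% and lowered 4.36% of all. Abscisic acid raised 12 and lowered 12 (7.79% and 10.2% of all), and zeatin raised 1 and lowered 6 (0.527% and 0.477% of all). IAA raised 3 and lowered 2 (1.53% and 0.546% of all), ACC raised 1 and lowered 0 (0.778% and 0.477% of all), and brassinolide in det2-1 raised 2 and lowered 0 (0.722% and 0.377% of all). The medians of the 64 lay between -0.20 (methyl jasmonate) and 0.12 (brassinolide in det2-1). Of the 21 rises under GA3, methyl jasmonate raised 1 and lowered 6, abscisic acid raised 4 and lowered 6, and brassinolide in Col-0 raised 3 and lowered 3. IAA raised 2 and lowered 1, zeatin raised 1 and lowered 1, ACC raised 1 and lowered 0, and brassinolide in det2-1 called 0 of them. The medians of the 21 lay between -0.28 (methyl jasmonate) and 0.17 (brassinolide in Col-0). Methyl jasmonate thus had negative medians for both the falls and the rises of GA3, against -0.05 over all tested probe sets. These shares describe the list and were not tested.

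XERICO was raised by brassinolide in Col-0 (log2 change 0.57, SE 0.13, adjusted p = 0.0040 by limma), and its change in det2-1 was 0.37 (adjusted p = 0.142). GID1B was raised by methyl jasmonate (0.73, SE 0.12) and by abscisic acid (0.42, SE 0.12, adjusted p = 0.0092). GID1A was raised by methyl jasmonate (0.62, SE 0.15, adjusted p = 0.0025). Methyl jasmonate and abscisic acid thus gave GID1B changes of the sign opposite to that under GA3 in ga1-5. IQD22 and SLY1 were called under none of the other hormones in this fit.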

How the data were processed

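The authors deposited a linear signal intensity for every probe set, computed with MAS5 (per the submitters' processing notes). Neither scanner files nor detection calls entered here. Each of the 24 arrays was scaled to a 2% trimmed mean of 1163, and log2(signal + 55) was taken, where 55 is 10% of the median deposited signal, so changes at low signal are understated. Testing was limited to probe sets that exceeded the 40th percentile on 2 or more arrays. limma 3.58.1 in R 4.3.3 fitted a GA3 effect (pooled, per genotype or per time) with 1 block for each set and replicate number (12 blocks), eBayes with an intensity trend and Benjamini-Hochberg adjustment over 15934 probe sets at a threshold of 0.05. Calls under other hormones came from 1 fit of all 72 arrays (18 blocks), an addition made after the data were seen. In that fit 1973 impossible values of 1 IAA array were treated as missing.

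As a check of pairing, the group-centred values of same-numbered GA3 and mock arrays correlated at 0.168, 0.0674 and 0.0243 in ga1-5 and at 0.174, 0.220 and 0.231 in Col-0 (30 min, 1 h and 3 h). Tested on simulated data, the pooled fit recovered 42%, 86%, 98% and 100% of changes of 0.25, 0.5, 1 and 2 among 15934 probe sets, and 7 of 170 calls were false. The simulation covered the pooled comparison alone, with independent normal noise at each probe set's fitted spread and the same effect in every pair. Its rates do not give the share of false calls on the real arrays. Recovery of effects that differ between the genotypes or the times was not tested.

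The platform annotation gives a single gene to 13513 probe sets, several genes to 503 and none to 8730. For 13436 the symbol was updated through the Entrez identifier to RefSeq. The experiment and the 19 gene lists were chosen with earlier results of these data known. The text names the 12 largest rises and 12 largest falls among probe sets called in the pooled comparison that name 1 gene, every tested gene of the gibberellin lists, and, of the other lists, the called members or else the 2 with the smallest p. It also names genes whose change differed between the times, the unnamed probe sets with the largest changes, and genes singled out after their values were seen. These last are the other called genes with a RefSeq symbol, AT1G68570, AT1G28190, AT1G17830, AT3G10760, XTH16, LHCB4.2, PSAE-1 and the Col-0 calls. Alternatives varied the block, the arrays, the variance model, the scaling, the pseudocount, the filter and the pairs or times left out.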

Additional observations from a re-analysis of the deposited data

Results flagged for a closer look

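In 7 of 130 groups of 6 pair differences (a gene in a genotype), 1 pair stood apart by Dixon's criterion at the 95% level, and chance marks about 1 in 20 groups. All values are log2 differences, GA3 minus mock. In ga1-5 the pair of 30 min replicate 2 stood apart at AT2G25720 (0.99, the other 5 pairs 0.25 to 0.42), at GID1A (-0.17, others -0.73 to -0.55) and at EXPA7 (-0.65, others -0.24 to -0.03), and the pair of 3 h replicate 2 at IAA18 (-0.41, others 0.07 to 0.25). In Col-0 the pair of 30 min replicate 2 stood apart at GID1B (-0.067, others -0.55 to -0.44), the pair of 3 h replicate 2 at IAA20 (-1.84, others -0.38 to 0.41), and the pair of 3 h replicate 1 at 266150_s_at (-1.27, others -0.71 to -0.49).

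The change from 30 min to 3 h differed from 0 for 6 probe sets by limma's test of the difference itself. The effect at 3 h minus that at 30 min was -0.94 for AT5G36160 (adjusted p = 0.00136), -0.97 for 260567_at, 0.84 for 247954_at (adjusted p = 0.0019), -1.25 for 265672_at, -0.71 for XTH32 (adjusted p = 0.0167) and -0.60 for AT1G79720. Each time lies in sets of its own, so time and set cannot be told apart.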

How the results depend on the processing

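Beside 128 pooled calls, the fit with no replicate block gave 58, all among the 128, and the fit without an intensity trend 49. The pairing check leaves ga1-5 at 1 h and 3 h below a correlation of 0.1, so there the replicate block rests on the shared number and the shared trimmed mean. Without the 1 h or the 3 h sets 13 and 6 pooled calls were left. Leaving out 1 pair gave 66 to 171 pooled calls, 17 to 105 in ga1-5, 0 to 11 in Col-0, 0 to 11 at 1 h, 84 to 215 at 3 h, 3 to 7 for the change with time and 0 for the genotype difference and for 30 min. With no replicate block there were 28 calls in ga1-5, 1 in Col-0, 8 at 1 h, 77 at 3 h and 3 for the change with time. An alternative fit of all 72 arrays had a mean for each group and a replicate effect within each set. It gave 129 calls in ga1-5, 19 in Col-0, 16 at 1 h, 2 at 30 min, 10 for the change with time and 1 for the genotype difference. The hormone fit of 72 arrays is a separate one, in which GA3 in ga1-5 lowered 17 probe sets and raised 1. Without an intensity trend there were 38 in ga1-5, 0 in Col-0, 0 at 1 h and 104 at 3 h. Leaving out the 30 min sets gave 128 calls in ga1-5, 18 in Col-0 and 5 for the genotype difference. Leaving out the 1 h sets gave 6 and 3, and leaving out the 3 h sets 6 and 0, in ga1-5 and Col-0. Col-0 had 1 call on the deposited scale, 9 with array medians subtracted, 8 at the 50% pseudocount and 0 with no filter. The no-filter fit had 3 calls at 1 h, and the change with time had 10 calls with medians subtracted, 11 at the 50% pseudocount and 10 with the filter of 12 arrays. The cause of these moves was not tested, beyond the fewer arrays or more probe sets of a fit.

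Of 1621 pooled values of 65 named genes and probe sets under the alternatives, 1421 kept their side of the threshold, 182 lost a call, 18 gained one and 0 turned a called direction. XERICO was called under all 25 alternatives (adjusted p at most 0.0073). Depth is unknown for these intensities, and dim probe sets are limited by the pseudocount.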
